A study of Homo sapiens with 6 samples.

Results

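Cadherins CDH1, CDH2, CDH3, CDH4, CDH11 and CDH17 and the catenins CTNNA1, CTNND1 and JUP were followed in SW403 cells with and without knockdown of IRS2, an adaptor protein that carries signals from the insulin and IGF receptors. These 9 genes were taken by symbol from a count table of 26490 gene symbols. They were selected with the knockdown contrast known, around the lower level of CDH2, so the values of all 9 in that contrast are a description and support nothing by themselves. Of the 9, 4 (CDH2, CTNNA1, CTNND1 and JUP) passed the expression filter and were among 13832 genes tested. The other 5 had too few reads, and their counts are given as they stand. The question was whether the lower CDH2 in the knockdown came with a change of CDH1 or of another cadherin.

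Classical cadherins are single-pass membrane proteins whose extracellular repeats bind cadherins of a neighbouring cell in the presence of calcium. Their cytoplasmic tails hold p120-catenin (CTNND1) near the membrane and β-catenin (CTNNB1) or plakoglobin (JUP) further along, and alpha-catenin (CTNNA1) links that complex to actin. Colon epithelium is known for E-cadherin (CDH1) and for the intestinal LI-cadherin (CDH17), which lacks the catenin-binding tail. N-cadherin (CDH2) is known from neural, mesenchymal and cardiac cells, and an exchange of E-cadherin for N-cadherin is a textbook mark of the epithelial to mesenchymal transition.

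RNA-seq libraries were made from SW403, an established human colon adenocarcinoma line, in 2 groups of 3. The series addresses the role of IRS2 in brain metastasis of colorectal cancer. The control carried the genotype label WT and the other group the label IRS2_knockdown. The control descriptions also carry the letters NS, which the labels do not explain, so whether the control cells were modified is not known. Both groups were grown for 24 h in DMEM with 10% serum and no treatment, and 1000 ng of total RNA entered each library. The titles name a knockdown and the sample descriptions carry the letters KO, and this conflict was not resolved by other labels. The replicates are called biological, but the labels do not say by what method IRS2 was lowered, whether 1 clone or a pool was used, or whether the cultures came from separately made lines, so p-values measure the spread between these cultures. Control libraries held 12585013, 12561390 and 11816973 counts and knockdown libraries 14329348, 17065701 and 18114656, so every knockdown library was the deeper. Counts of IRS2 itself were 408, 437 and 381 in the control and 186, 210 and 216 in the knockdown. That is 33.2 ± 1.42 against 12.4 ± 0.535 CPM (counts scaled to a library total of 1e6; mean ± SD, n = 3 each), a log2 fold change of -1.39 ± 0.07 (SE), and the groups did not overlap. Genes of the colon epithelium were partly present. Of 10 such markers 7 were tested, among them KRT8, KRT18, KRT19, EPCAM and CDX2, while KRT20 and CDX1 had no read and LGALS4 had 3 reads in 1 library.

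CDH2, which encodes N-cadherin, was the most strongly lowered of the 4 tested members. Its counts were 257, 263 and 228 without the knockdown and 79, 86 and 93 with it. In CPM these were 20.4, 20.9 and 19.3 in the control and 5.51, 5.04 and 5.13 in the knockdown. Every knockdown library lay far below every control library, and the spread within either group was small beside the gap. The means were 20.2 ± 0.840 and 5.23 ± 0.251 CPM (SD, n = 3 each), a log2 fold change of -1.92 ± 0.10 (SE; 95% interval -2.11 to -1.73), or 3.79-fold lower. Its log2 fold change ranked 108 from the lowest among all tested genes and 5 among those averaging 100 counts or more. In these bulk samples, fewer cells with CDH2 and less CDH2 RNA per cell cannot be told apart.

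**Figure D1:**
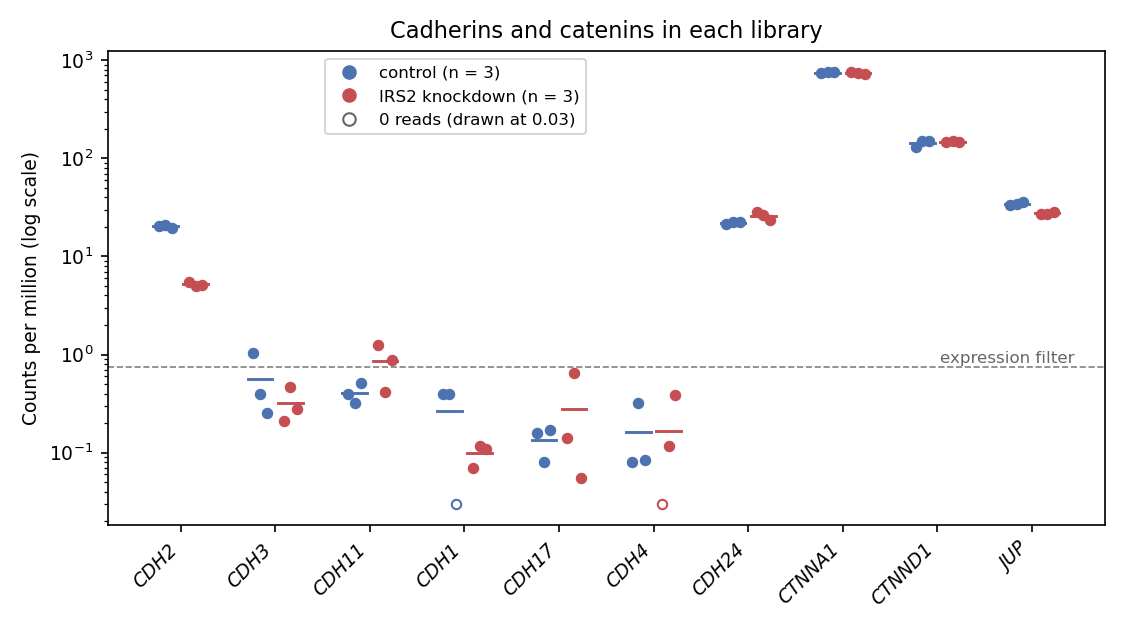
CPM of the 9 cadherin and catenin genes and of CDH24, a further cadherin described later, in each library on a log axis. Blue points are control and red points knockdown libraries, bars are group means, open points mark 0 reads, and the dashed line is the expression filter. CDH2 and JUP are the members whose 6 libraries separate by group among the 4 tested, and CDH1, CDH3, CDH4, CDH11 and CDH17 lie near or under 1 CPM.

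Markers of other cell types were read beside CDH2, since mesenchymal and neural cells carry it. The 8 fibroblast markers summed to 28.1, 11.3 and 9.56 CPM in the control and to 6.84, 5.98 and 7.45 CPM in the knockdown. Control replicate 1 stood apart through the collagens COL1A1 (15.3 CPM there), COL1A2 and COL3A1. Of the 8, 3 were tested, and COL1A1 (-1.15 ± 0.28) and COL3A1 (-1.71 ± 0.52) were lower in the knockdown, as CDH2 was. Without control replicate 1 COL1A1 was at -0.50 ± 0.17 and still past the threshold, and COL3A1 at -1.04 ± 0.57 and no longer so, nor was COL3A1 without knockdown replicate 2 (-1.31 ± 0.54). The stromal genes DCN (0.164 and 0.0184 CPM), LUM (0.512 and 0.203 CPM) and PDGFRA (0.675 and 0.165 CPM; control and knockdown means) were under 1 CPM in every library and not tested. They were lower in the knockdown, and their groups did not overlap, which held for 48.4% of all tested genes. DCN rested on 2, 1 and 3 reads in the control and 0, 0 and 1 in the knockdown. LUM had 7, 7 and 5 against 3, 4 and 3, and PDGFRA 7, 11 and 7 against 3, 3 and 2. PDGFRB, the other tested marker, did not pass the threshold (-0.18 ± 0.25), and its groups overlapped. THY1 had 0 reads in the control and 1 in the knockdown. The log2 fold change of CDH2 was -1.92 without control replicate 1. The 5 neural markers summed to 39.1, 40.5 and 40.3 CPM in the control and to 33.1, 32.1 and 27.6 CPM in the knockdown. Nearly all of it was SYT1, which was past the threshold and lower (-0.35 ± 0.07). SNAP25 did not pass (-0.33 ± 0.23), and 3 of the 5 were under 1 CPM everywhere. All 5 endothelial markers were under 1 CPM, with no read of 2, and the 5 immune markers summed to between 1.91 and 3.38 CPM. The 10 epithelial markers summed to between 2540 and 2640 CPM in the control and between 2370 and 2460 CPM in the knockdown. Most of it was KRT8 and KRT18 (-0.05 ± 0.03 each), which did not pass the threshold. KRT19 (-0.47 ± 0.04) and EPCAM (-0.21 ± 0.06) were lower, and CDX2 (0.14 ± 0.04) and CLDN7 (0.86 ± 0.20) were higher. The part of any of these in the CDH2 difference was not tested.

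Very few reads were assigned to E-cadherin in these libraries. CDH1 (chr16:68771195-68869440 on GRCh37) had 5, 5 and 0 reads in the control libraries and 1, 2 and 2 in the knockdown libraries, 15 of the 86473081 reads in all. Neither group had more than a handful, and the groups overlapped. The group totals of 10 and 5 reads correspond to 0.271 CPM (exact 95% Poisson interval 0.130 to 0.498) and 0.101 CPM (0.0328 to 0.236). The knockdown stood at 0.373 of the control with a counting interval of 0.10 to 1.20. A rise of CDH1 above 1.20 times its control level lies outside that interval, which covers counting error only. Per kilobase of transcript, CDH1 made up at most 1.5% of the 6 member cadherins in any library. The lower CDH2 was not accompanied by a gain of CDH1 reads. CDH1 and CDH17 near 0, like KRT20 and CDX1 at 0, stand apart from the colon adenocarcinoma label, and the part of the line's identity or of the annotation used for counting in these low values was not tested.

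The other 4 member cadherins that were not tested also stayed low. P-cadherin (CDH3), which sits beside CDH1 at chr16:68670092-68761371, had 13, 5 and 3 reads in the control and 3, 8 and 5 in the knockdown. R-cadherin (CDH4) had 1, 4 and 1 reads in the control and 0, 2 and 7 in the knockdown. LI-cadherin (CDH17) had 2, 1 and 2 reads in the control and 2, 11 and 1 in the knockdown, with 11 of the 14 knockdown reads in 1 library. In all 3 genes the groups overlapped. The ratio of knockdown to control CPM was 0.569 for CDH3 (counting interval 0.278 to 1.14), 1.12 for CDH4 (0.356 to 3.82) and 2.09 for CDH17 (0.712 to 7.42), so a difference was not detectable at this depth. For scale, 3 reads are 0.238, 0.239 and 0.254 CPM in the control libraries and 0.209, 0.176 and 0.166 CPM in the knockdown libraries.

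OB-cadherin (CDH11), a cadherin known from mesenchymal and bone-forming cells, was the one low member with more reads in the knockdown than its counting error covers. It had 5, 4 and 6 reads in the control and 18, 7 and 16 in the knockdown. Knockdown replicates 1 and 3 were well above the control, while replicate 2, once scaled to its depth, fell within the control range. The totals of 15 and 41 reads are 0.406 CPM (0.227 to 0.669) and 0.828 CPM (0.594 to 1.12), a ratio of 2.04 (1.11 to 3.97, counting error only). CDH11 lay just outside the expression filter, which asks for 0.743 CPM in at least 3 libraries, with 2 libraries over it. With no filter its log2 fold change was 1.07 ± 0.48 (SE) and did not pass the threshold of 0.05 on the adjusted p, nor did it without control replicate 1 (1.03 ± 0.55), 2 (0.91 ± 0.53) or 3 (1.23 ± 0.56). Without knockdown replicate 2, the library within the control range, it was 1.39 ± 0.44 and passed.

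Of the catenins among the 9 genes, JUP (chr17:39910856-39943183) was lower, while CTNNA1 (chr5:137946656-138270723) and CTNND1 (chr11:57520715-57587018) were near their control level. Plakoglobin (JUP), which serves both adherens junctions and desmosomes, stood at 33.8, 34.2 and 35.9 CPM in the control and at 27.4, 27.2 and 28.7 CPM in the knockdown. All 3 knockdown libraries were below all 3 controls. Means were 34.7 ± 1.08 and 27.8 ± 0.781 CPM (SD, n = 3 each), a log2 fold change of -0.29 ± 0.06 (SE; 95% interval -0.40 to -0.17), or 1.22-fold lower. Alpha-catenin (CTNNA1) was abundant at 745, 754 and 751 CPM in the control and 754, 750 and 728 CPM in the knockdown, with overlapping groups and a log2 fold change of 0.02 ± 0.03 (SE; interval -0.03 to 0.07). p120-catenin (CTNND1), which keeps cadherins at the cell surface, had 131, 150 and 151 CPM in the control and 146, 152 and 146 CPM in the knockdown. Its groups overlapped too, and its log2 fold change was 0.07 ± 0.05 (SE; interval -0.02 to 0.16). With a trend on transcript length removed, CTNNA1 stood at 0.06 and CTNND1 at 0.14 and both passed the threshold, where the median of all genes moved to 0.0467 and 65.7% of the called genes were higher, against 50.2% before and 40.8% with library size alone. The direction of CTNNA1 also turned, to -0.01, when library size alone was the scale.

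In count, 2 of the 4 tested members were past the threshold (edgeR, Benjamini-Hochberg adjusted p under 0.05), CDH2 and JUP, both lower, and the median log2 fold change of the 4 was -0.14. Over all tested genes 38.5% were past it, 19.3% higher and 19.2% lower, and the median was -0.0039. CDH2 and JUP were also the 2 of the 4 whose groups did not overlap in CPM, which held for 48.4% of all tested genes. Since the 9 genes were chosen on this contrast, nothing is read from these shares.

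**Figure D2:**
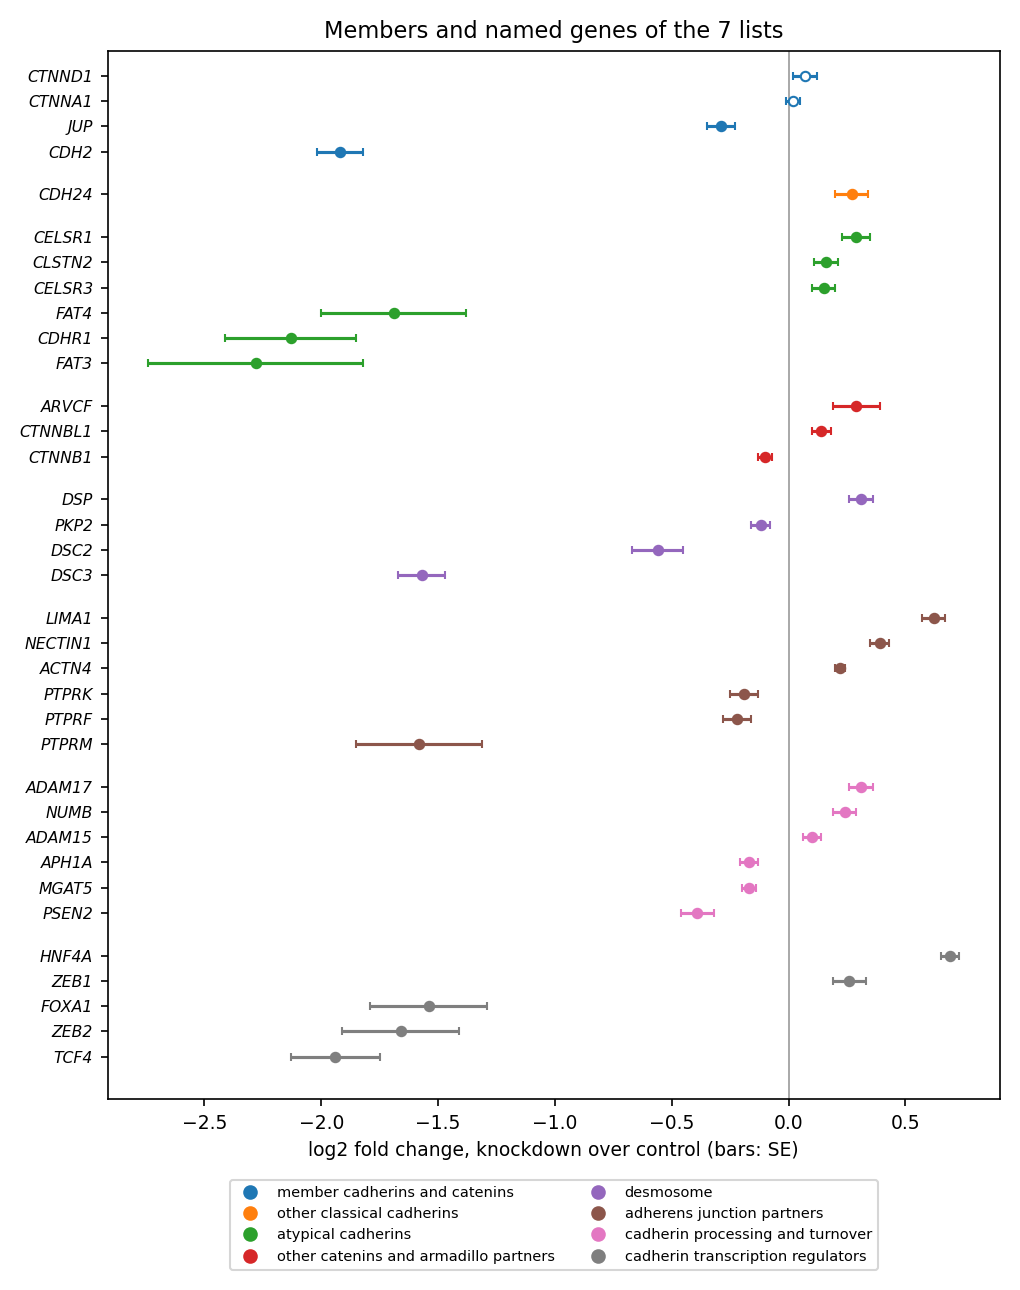
Log2 fold change, knockdown over control, with SE bars, of the tested cadherin and catenin members and of the named genes of each gene list, coloured by list, with open points for genes not past the threshold. CDH2 at -1.92 lies lowest of the members, and CTNNA1 and CTNND1 lie near 0.

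Set per kilobase of transcript, CDH2 made up most of the member cadherin sum in every library, and more of it in the control. The 6 genes summed to 5.51, 5.50 and 5.00 CPM per kilobase (RPKM) in the control and to 1.66, 1.64 and 1.57 RPKM in the knockdown. The sum was lower in every knockdown library, 5.34 ± 0.292 against 1.62 ± 0.0473 RPKM (SD, n = 3 each), or 3.29-fold. CDH2 made up 92.2%, 94.7% and 96.2% of it in the control and 82.7%, 76.6% and 81.5% in the knockdown, and so remained the main member cadherin in all 6 libraries. The remaining share was spread over the other 5 genes, each resting on few reads. The 3 catenins summed to 231 ± 2.89 RPKM in the control and 228 ± 3.79 RPKM in the knockdown (SD, n = 3 each), and the groups overlapped. CTNNA1 alone made up 200 and 198 RPKM of these sums. The sum therefore follows CTNNA1 and cannot show the lower JUP, at 9.89 and 7.92 RPKM.

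CDH24 (chr14:23516271-23526747), a classical cadherin outside the 9 genes, was the classical cadherin that passed the test upward. It was the only one of 13 other classical cadherins to pass the expression filter, while 3 of the 13 had no read. CDH24 stood at 21.5, 22.3 and 22.5 CPM in the control and 28.5, 26.3 and 23.6 CPM in the knockdown. The groups did not overlap, although knockdown replicate 3 came close to the control. Its log2 fold change was 0.27 ± 0.07 (SE; edgeR adjusted p = 0.00742, with 0.00102 to 0.0402 over the alternatives). Per kilobase, CDH2 stood at 0.809, 0.799 and 0.729 of CDH24 in the control and at 0.165, 0.163 and 0.185 of it in the knockdown. In the sum of all 7 cadherins, CDH24 took 54.8% ± 1.86 in the control and 82.5% ± 0.950 in the knockdown, and CDH2 went from 42.6% ± 0.987 to 14.1% ± 0.907 (SD, n = 3 each). That sum was 11.8 ± 0.20 RPKM in the control and 9.28 ± 0.757 RPKM in the knockdown, 1.27-fold lower. CDH24 itself went from 6.47 ± 0.163 to 7.65 ± 0.711 RPKM and CDH2 from 5.03 ± 0.209 to 1.3 ± 0.0624 RPKM. The gain of CDH24 was thus smaller in RPKM than the loss of CDH2, and its larger share mainly follows that loss.

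**Figure D3:**
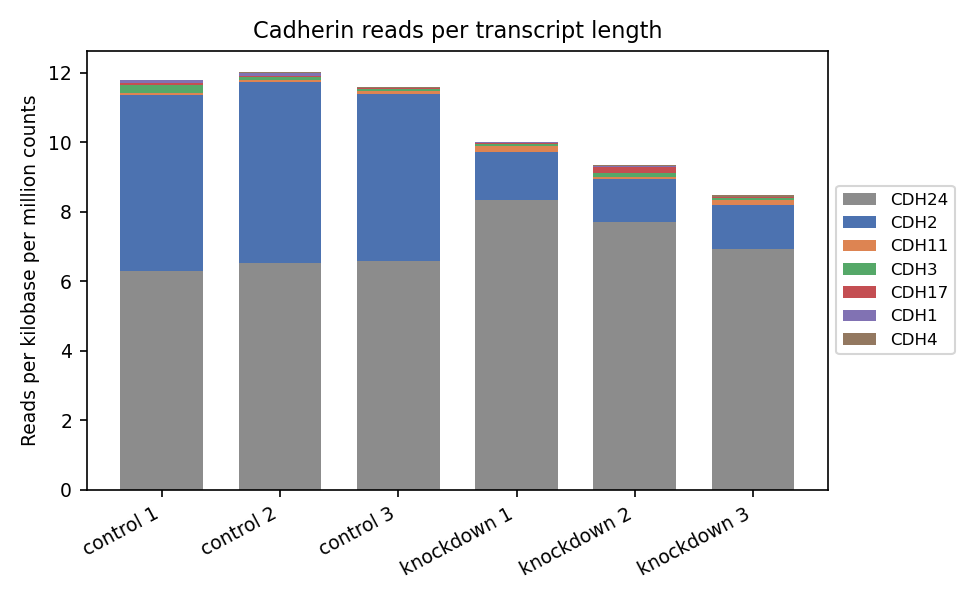
RPKM per library of the member cadherins and CDH24, stacked. CDH2 goes from 42.6% to 14.1% of the 7-gene sum between control and knockdown libraries. The share of CDH24 goes from 54.8% to 82.5%. In mean RPKM CDH24 goes from 6.47 to 7.65 and CDH2 from 5.03 to 1.3, so both shares mainly follow CDH2.

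The promoter windows of CDH2 and JUP are shown because these were the 2 members past the threshold. Each is the 250 bases before a transcription start, from RefSeq on GRCh38.p14, minus strand, printed 5′ to 3′ in lower case. Capitals mark CANNTG, the general E-box word, a pattern that reads the same on both strands. Its form CAGGTG, or the reverse complement, is the one known for SNAI and ZEB family factors. Of the 9 genes, 4 had a window in the table used.
CDH2 start 1, chr18:28177131-28177380: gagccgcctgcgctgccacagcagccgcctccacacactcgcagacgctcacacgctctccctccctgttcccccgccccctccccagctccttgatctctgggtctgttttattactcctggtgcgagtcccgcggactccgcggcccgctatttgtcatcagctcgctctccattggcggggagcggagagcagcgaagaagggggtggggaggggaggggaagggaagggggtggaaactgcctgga
CDH2 start 2, chr18:28036642-28036891: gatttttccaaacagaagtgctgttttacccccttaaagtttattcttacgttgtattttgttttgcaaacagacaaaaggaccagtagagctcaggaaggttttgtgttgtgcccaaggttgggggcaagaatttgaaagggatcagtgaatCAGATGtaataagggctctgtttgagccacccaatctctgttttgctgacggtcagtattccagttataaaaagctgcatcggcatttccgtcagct
JUP start 1, chr17:41786712-41786961: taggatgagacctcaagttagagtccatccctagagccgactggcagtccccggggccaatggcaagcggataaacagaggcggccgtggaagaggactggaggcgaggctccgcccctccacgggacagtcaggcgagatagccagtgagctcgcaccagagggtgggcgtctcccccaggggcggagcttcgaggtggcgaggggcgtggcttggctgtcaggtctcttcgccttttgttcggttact
JUP start 2, chr17:41785977-41786226: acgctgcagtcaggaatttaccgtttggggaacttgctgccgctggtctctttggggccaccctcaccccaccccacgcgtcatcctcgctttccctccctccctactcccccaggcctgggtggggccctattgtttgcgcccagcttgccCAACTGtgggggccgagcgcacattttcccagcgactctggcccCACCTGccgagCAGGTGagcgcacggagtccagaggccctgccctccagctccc

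The first CDH2 window held no CANNTG, 17 CG pairs and 66.0% G or C, and the second held 1 (CAGATG), 4 CG pairs and 42.0% G or C. JUP start 1 held none and JUP start 2 held 3, of which 2 were CAGGTG or its reverse complement. Over 35116 windows of the same length, 61.8% held CANNTG and 17.5% held CAGGTG on either strand, and the median number of CG pairs was 11. A match describes letters only, and its absence says only that they are not in this window. Counts per gene do not tell which start was used.

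CDH2 lies at chr18:25512843-25757910 on GRCh37 (minus strand, 16 exons), in a wide stretch with few tested genes. Of its 5 nearest tested genes on each side, 5 were lower and none higher (edgeR; 1 higher at an unadjusted p under 0.05 by edgeR and by limma voom, 0 by DESeq2), and their median was -0.14 on the log2 scale. Over all tested genes 19.2% were lower and 19.3% higher. The desmosomal cadherin genes DSC3 and DSC2 were the nearest on one side, 2810 and 2880 kb away. DSC3 stood at 19.5 ± 1.48 CPM in the control and 6.38 ± 0.346 CPM in the knockdown (log2 fold change -1.57 ± 0.10, adjusted p = 3.89e-10 by edgeR). DSC2 was lower by less (-0.56 ± 0.11). The nearest on the other side, KCTD1, was at -0.08 ± 0.09 (edgeR adjusted p = 0.508), and the desmoglein gene DSG2 did not pass the threshold either. CDH1 and CDH3 share the same 10 neighbours on chromosome 16, of which 3 were higher, among them TANGO6 at 0.35 ± 0.07. The share higher over all tested genes was 19.3%.

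**Figure D4:**
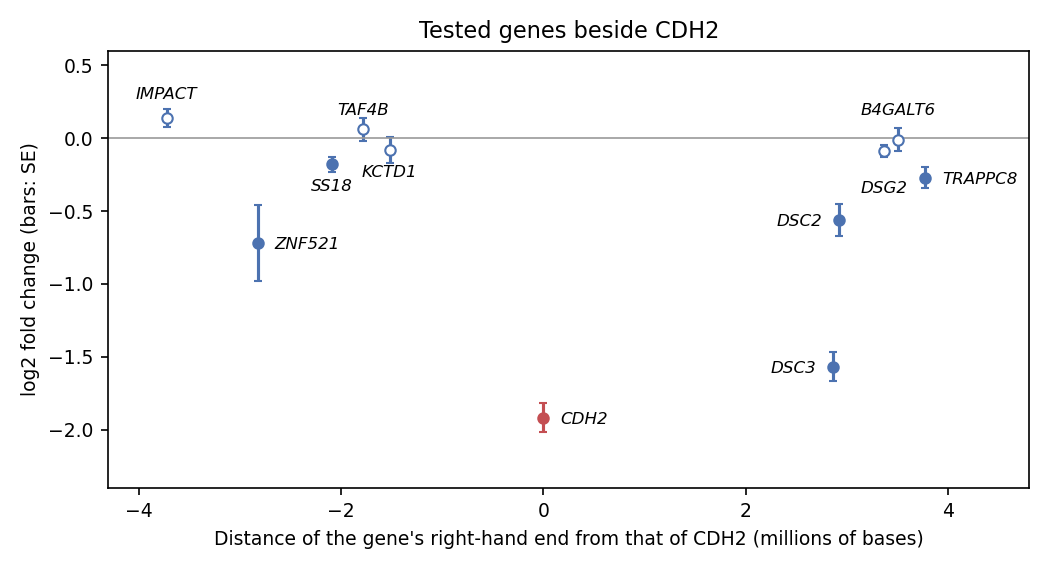
Log2 fold change with SE bars of CDH2 and the 5 tested genes on either side, against distance from CDH2 along the chromosome. Filled points passed the threshold, and DSC3 at -1.57 lies nearest to CDH2 in size of change.

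Genes with the pattern most like CDH2 were sought among 10448 genes averaging 100 counts or more, by Euclidean distance of centred log2 CPM over the 6 libraries. The nearest were EPB41L3 (0.11), a cytoskeletal band 4.1 protein also on chromosome 18, then MAF and FSTL1 (0.20 each), AKR1B1 (0.23) and ID3 (0.24). EPB41L3 had 12.1 ± 0.709 CPM in the control and 3.24 ± 0.0981 CPM in the knockdown. All 5 were chosen by this likeness, so their lower values are no separate result.

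Desmosome genes, the closest relatives of the cadherin complexes, moved unevenly. Of 12, 7 were tested, 1 was higher and 3 were lower (over all tested genes: 19.3% higher, 19.2% lower), and the median was -0.11. DSC3 and DSC2, given above, and PKP2 (-0.12 ± 0.04) were the lower ones, and the call of PKP2 was lost without control replicate 2 or 3 or knockdown replicate 2. DSP, which encodes the desmoplakin that ties desmosomes to keratin, rose from 270 ± 17.6 to 327 ± 31.0 CPM (0.31 ± 0.05). Among those not tested, the desmosomal cadherin gene DSG4 had 1, 3 and 3 reads in the control and 11, 13 and 13 in the knockdown. That is 0.191 and 0.749 CPM on average, and the groups did not overlap, which held for 48.4% of all tested genes. The groups of DSG1 and PKP1 overlapped, and DSC1 and DSG3 had no read. With no filter on low counts, 5 desmosome genes passed.

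Among the remaining catenins and their armadillo relatives, 6 of 9 were tested. Of these 2 were higher and 1 lower (over all tested genes: 19.3% higher, 19.2% lower), with a median of 0.04. β-catenin (CTNNB1), the alternative to JUP on the cadherin tail, was at 613, 623 and 632 CPM in the control and 568, 563 and 578 CPM in the knockdown. The groups did not overlap, with a log2 fold change of -0.10 ± 0.03 (edgeR adjusted p = 0.0102). ARVCF, a p120-catenin relative, was at 0.29 ± 0.10 (edgeR adjusted p = 0.0328) and CTNNBL1 at 0.14 ± 0.04. These calls were fragile, and the count of 3 went to 1 without control replicate 1, without control replicate 2 or without knockdown replicate 2.

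Of the proteins that join cadherins to the cytoskeleton and to other junctions, 20 of 21 genes were tested. Of these 9 were higher and 3 lower (over all tested genes: 19.3% higher, 19.2% lower), with a median of 0.10. The actin-binding LIMA1 rose from 48.4 ± 3.45 to 72.7 ± 0.537 CPM (0.62 ± 0.05) and the immunoglobulin-like adhesion gene NECTIN1 from 141 ± 4.57 to 180 ± 1.5 CPM (0.39 ± 0.04). The actin crosslinker ACTN4 was at 0.22 ± 0.02. The 3 that fell were receptor phosphatases known to act at cell contacts, PTPRM (-1.58 ± 0.27), PTPRF (-0.22 ± 0.06) and PTPRK (-0.19 ± 0.06). PTPRF lost its call without control replicate 2 and PTPRK without control replicate 3.

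Genes for the maturation, shedding and turnover of cadherins gave 3 higher and 6 lower of 18 tested, with a median of 0.06. Over all tested genes 19.3% were higher and 19.2% lower. The sheddase ADAM17 rose from 52.9 ± 2.62 to 64.2 ± 2.41 CPM (0.31 ± 0.05), and NUMB, an endocytic adaptor, was at 0.24 ± 0.05. The gamma-secretase genes PSEN2 (-0.39 ± 0.07) and APH1A (-0.17 ± 0.04) and the glycosyltransferase gene MGAT5 (-0.17 ± 0.03) fell. ADAM15, at 0.10 ± 0.04 (edgeR adjusted p = 0.0468), lost its call when any library but control replicate 2 was left out.

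Of 23 listed regulators of cadherin genes, most of them transcription factors, 17 were tested. Of these 5 were higher and 6 lower, with a median of 0.05. Over all tested genes 19.3% were higher and 19.2% lower. TCF4 had 7.07, 6.21 and 7.45 CPM in the control and 1.4, 2.23 and 1.6 CPM in the knockdown (-1.94 ± 0.19), and ZEB2 went from 3.60 ± 0.968 to 1.1 ± 0.191 CPM (-1.66 ± 0.25). TWIST1 (-1.38 ± 0.37), TWIST2 (-1.06 ± 0.24) and TCF3 (-0.18 ± 0.03) were also lower. ZEB1, at 31.9 ± 1.09 and 37.6 ± 4.03 CPM (0.26 ± 0.07), and SNAI1 (0.28 ± 0.09) were higher. TWIST1 lost its call without control replicate 2, and SNAI1 without control replicate 1 or knockdown replicate 2. HNF4A, a factor of gut epithelium, rose from 89.6, 88.8 and 86.7 CPM to 145, 134 and 139 CPM (0.69 ± 0.04). FOXA1 was lower (-1.54 ± 0.25). CDH1 stayed at or under 5 reads in every library beside these differences.

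**Figure D5:**
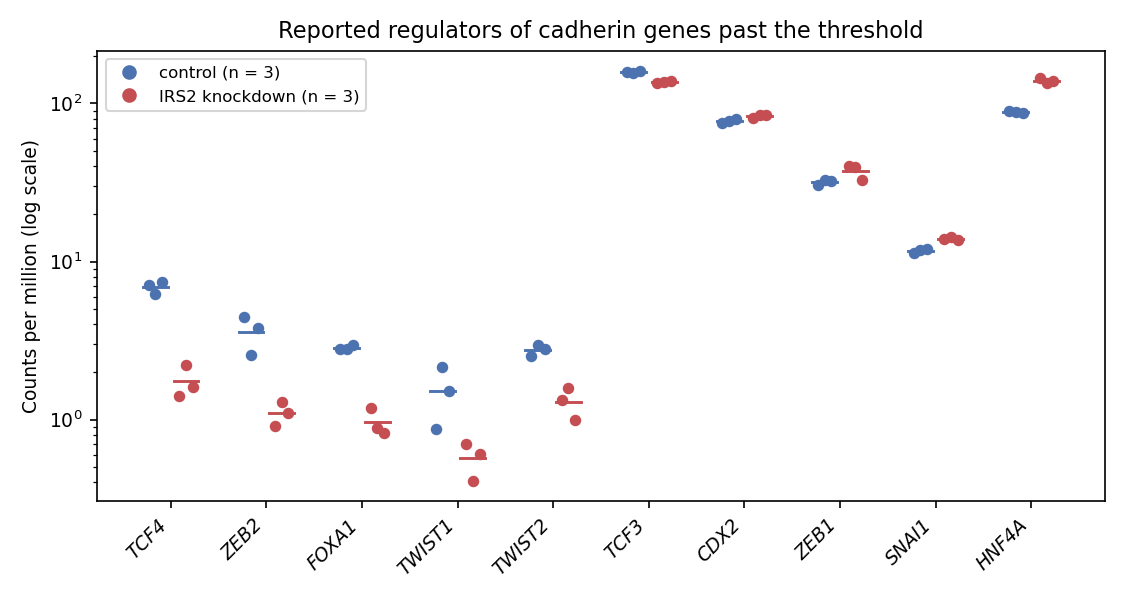
CPM per library, on a log axis, of the listed transcription factors past the threshold that are reported here, with control in blue, knockdown in red and bars for group means. TCF4, ZEB2 and FOXA1 are lower in all 3 knockdown libraries, and HNF4A and ZEB1 are higher in all 3.

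Of 21 atypical cadherins, relatives most of which lack the classical catenin tail, 15 were tested. Of these 3 were higher and 4 lower (over all tested genes: 19.3% higher, 19.2% lower), with a median of 0.09. FAT4, a planar polarity cadherin, went from 1.95 ± 0.328 to 0.597 ± 0.148 CPM (-1.69 ± 0.31), FAT3 was at -2.28 ± 0.46, and CDHR1, the photoreceptor cadherin, at -2.13 ± 0.28. These 3 were under 4 CPM on average in both groups. CELSR1, another planar polarity gene, rose from 31.5 ± 2.89 to 37.7 ± 1.19 CPM (0.29 ± 0.06). CLSTN2 (0.16 ± 0.05) and CELSR3 (0.15 ± 0.05) were higher by less, and both calls were lost without knockdown replicate 2. The CLSTN2 call was also lost without control replicate 1, and that of CELSR3 without knockdown replicate 1.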

How the data were processed

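Poly(A) or ribosomal selection, annotation, strand use and counting mode are not given in the sources used here. Whole-number read counts per gene symbol were deposited by the authors, together with a second table of normalized signal, whose values equal each library's counts divided by 1 constant. The submitters' processing notes name STAR 2.6.1a, Salmon, DESeq2 and hg19, with no role or order. Columns matched sample descriptions, and 0 were left unused. Reads from overlapping genes cannot be told apart where strand is unknown.

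The counts were tested with edgeR 4.0.16 in R 4.3.3 (TMM factors, filterByExpr, quasi-likelihood F-test, group as the only term), with Benjamini-Hochberg adjustment over 13832 genes and a threshold of 0.05. The fit was run on simulated counts with few changed genes and the same spread for every gene. These settings differ from the data, so that run checks the code only. CPM use total counts, and RPKM the length of 1 main transcript of GENCODE 44 on GRCh37, which 95.8% of tested genes had. Alternatives were DESeq2 1.42.0, limma 3.58.1 (voom, and log2 signal plus 1), other scalings and filters, thinned counts, a replicate block, a length trend and each library left out; CPM of low genes on effective library sizes was added after the data were seen. The members and lists were chosen with earlier results of these data known. Named genes were IRS2, the members, tested classical cadherins, up to 3 called genes by p in each direction of each list, adjacent tested genes, and the 5 most like CDH2. Of the named regulators, 1 is not reported here. DSG2, COL1A1, COL1A2, COL3A1, CHTF8 and DERPC and the markers were named after their values were seen, as were TWIST1, TWIST2, TCF3 and SNAI1. The same holds for DSG4, DSG1, PKP1, DSC1 and DSG3. An exact permutation test of 3 against 3 cannot go below 0.1.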

Additional observations from a re-analysis of the deposited data

How the results depend on the processing

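Alternatives covered scaling, filters, tests, depth, transcript length, threshold and each library left out. CDH2 kept a log2 fold change between -1.96 and -1.88 and JUP between -0.32 and -0.25. With the transcript length trend removed, 4 members passed in place of 2 and 15 processing genes in place of 9. At an adjusted p under 0.01, 4 atypical cadherins passed (7 before), 0 other catenins (3 before; 5 at an unadjusted p under 0.05, and 1 by DESeq2 and 1 by limma voom at 0.01) and 9 neighbours (18 before). A mean of at least 50 counts left 4 atypical cadherins and 7 regulators (11 before), fewer genes being tested. Library size alone gave 7 desmosome genes (4 before), and put 40.8% of all calls higher; the cause was not tested. Leaving out 1 library gave 4319 to 5256 calls over all genes, 2 to 3 members, 1 to 4 other catenins, 5 to 8 atypical cadherins, 3 to 6 desmosome genes, 11 to 14 junction partners, 7 to 10 processing genes, 9 to 11 regulators, 13 to 19 neighbours, and a log2 ratio of the cadherin sums of -1.76 to -1.69. CTNNA1 turned to -0.01 with library size alone and -0.00292 with upper-quartile factors. GOT2, beside CDH11 at 0.01 (-0.01 to 0.02 with 1 library left out), turned to -0.02 and -0.01 with these, and to -0.01 under the 50-count filter and without knockdown replicate 3. The labels do not say whether replicate numbers shared by both groups pair the libraries. With group means removed, libraries of the same number correlated at 0.0447, -0.0112 and -0.0981. With 3 libraries per group these values cannot decide whether the libraries were paired. With the replicate number as a block 4862 genes passed in place of 5329, and 2 members; among named genes ADAM15 (adjusted p = 0.0794) and ARVCF (0.0519) lost their calls. The 15 CDH1 reads limit what can be said of it.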

Other observations

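Chromosome 18, which holds CDH2, DSC3, DSC2 and EPB41L3, was looked at after these values were seen. Of its 180 tested genes 40 were higher and 54 lower, so 30.0% were lower against 19.2% of all tested genes, and the median log2 fold change was -0.07. On chromosome 16, which holds CDH1, CDH3 and CDH11, 18.1% were lower, and on chromosome 20, which holds CDH4, 32.2% were higher and 12.2% lower.

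COL1A2 had 86 reads in control replicate 1 and 11 and 3 in the other control libraries, against 8, 1 and 8 in the knockdown. CHTF8 and DERPC, both neighbours of CDH1 and CDH3, carry identical counts in all 6 libraries and are thus 1 measurement listed under 2 symbols.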
